A study of Mus musculus with 8 samples.

Results

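The 7 genes that encode the subunits of the NMDA-type glutamate receptor (Grin1, Grin2a, Grin2b, Grin2c, Grin2d, Grin3a and Grin3b) were followed through the nuclear RNA of single hippocampal nuclei of mice. They were taken by symbol, and they are 7 of the 30211 genes that the count tables list. There were 8 libraries, 1 per mouse, from 3 WT and 3 GKO mice aged 7 mo, and from 1 mouse each of J20;WT and J20;GKO aged 6 mo. GKO mice carry a deletion in Gsap, the gene of γ-secretase activating protein, made by CMV-driven Cre acting on loxP sites around part of the gene. J20 mice carry human APP with the Swedish and Indiana mutations under the PDGFB promoter, and the J20;GKO mouse carries both alterations. The study asked what loss of Gsap changes in the hippocampus, with and without this transgene.

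An NMDA receptor is an ion channel that opens when glutamate and a co-agonist, glycine or D-serine, are bound and the membrane is depolarized, and its calcium current starts the signalling behind many forms of synaptic plasticity in the hippocampus. Each receptor holds the obligatory subunit encoded by Grin1, which binds the co-agonist, together with GluN2 subunits (Grin2a to Grin2d), which bind glutamate, or GluN3 subunits (Grin3a and Grin3b), which bind glycine. The GluN2 subunit sets how fast the channel closes and how strongly magnesium blocks it, and receptors with GluN2A largely replace those with GluN2B as forebrain neurons mature. GluN3 subunits lower the calcium permeability of the receptor.

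In the mm10 assembly (GRCm38, GENCODE M21 annotation), Grin1 lies on chromosome 2 from 25291181 to 25319187, Grin2a on chromosome 16 from 9567898 to 9995560 and Grin2b on chromosome 6 from 135713233 to 136173511. Grin2c lies on chromosome 11 from 115249169 to 115267243, Grin2d on chromosome 7 from 45831883 to 45878378 and Grin3a on chromosome 4 from 49661611 to 49845744, all 6 on the minus strand. Grin3b is on the plus strand of chromosome 10 from 79970715 to 79977190. The sequences just before the start of Grin1 and of Grin2c are shown because only these 2 had enough bases left outside annotated exons and the gene. Their distributions over cell types were unlike, the former high in every neuron type and the latter in astrocyte-like nuclei, but the choice did not use this. Both come from RefSeq's GRCm38.p6 promoter table, which held 4 of the 7 genes, run 5′ to 3′ on the gene's strand and stop before the first transcribed base, with each CG dinucleotide, the site of DNA methylation in mammals, in capitals.
Grin1: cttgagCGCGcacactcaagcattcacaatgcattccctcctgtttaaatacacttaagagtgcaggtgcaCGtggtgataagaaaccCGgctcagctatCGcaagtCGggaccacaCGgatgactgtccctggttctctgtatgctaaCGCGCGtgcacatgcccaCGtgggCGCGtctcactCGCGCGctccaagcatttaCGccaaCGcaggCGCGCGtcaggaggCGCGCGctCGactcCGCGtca
Grin2c: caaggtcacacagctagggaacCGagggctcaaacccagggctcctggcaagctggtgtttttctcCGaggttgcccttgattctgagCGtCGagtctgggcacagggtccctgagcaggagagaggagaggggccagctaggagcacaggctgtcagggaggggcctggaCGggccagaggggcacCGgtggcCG
The window of Grin1, chr2:25319188-25319437 on the minus strand, held 27 CG dinucleotides in 250 bases, a number reached by 8.56% of 32851 windows of that length. The window of Grin2c, chr11:115267298-115267493 on the minus strand, held 7 in 196 bases, a number reached by 37.5% of windows. At least 1 CG was present in 92.1% and 88.8% of windows of the respective lengths. These are counts of letters, and no methylation was measured.

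The libraries held 21020159 to 43310978 unique molecular identifiers (UMIs, counted RNA molecules), and 32041 of 33314 barcodes were kept as nuclei, 2731 to 5252 per mouse. Any pair of libraries shared 2 to 21 cell barcodes. Nuclei were clustered without the 7 genes, although other genes of the same nuclei built the types, and clusters were named from marker genes as "like" a type. They gave 13583 excitatory and 1806 inhibitory nuclei, and 2485 nuclei stayed unnamed. No cluster was named CA2-like, and 1179 nuclei were CA3-like. When clusters were cut more finely, 790 nuclei were CA3-like and 391 were CA2-like. Values given for CA3-like neurons may thus include CA2-like nuclei. Gsap was only slightly lower in the libraries labelled GKO, though without overlap. It stood at 22.5, 23.0 and 22.3 counts per 1000000 UMIs (CPM) in WT mice and at 19.8, 21.8 and 22.0 CPM in GKO mice. The deletion removes internal exons, so tags from the remaining transcript do not check the labels. Xist, transcribed from the inactive X chromosome of females, was at 2259 CPM in WT mouse 1, 2135 in GKO mouse 1 and 2410 in the J20;GKO mouse and at most 3.00 CPM in the other 5, and WT mouse 1 and GKO mouse 1 also carry a date of their own in the deposited data.

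All 7 genes were detected, at very unequal totals: 477282 UMIs for Grin2a, 418308 for Grin2b, 90838 for Grin1, 17543 for Grin3a, 5014 for Grin2d, 4751 for Grin2c and 171 for Grin3b. How far counts of 3′ tags depend on gene length was not tested, so different genes are given unscaled and per length. Unscaled, excitatory neurons had medians of 2513 CPM of Grin2a, 2119 of Grin2b and 469 of Grin1, and 44.7 of Grin3a. Per kilobase of exon, excitatory neurons had 140 CPM of Grin2a, 85.3 of Grin2b, 48.3 of Grin1, 3.65 of Grin3a, 2.42 of Grin2d, 0.331 of Grin2c and 0.109 of Grin3b (medians of 8 mice). Per kilobase of the whole gene, Grin1 came first at 16.7 CPM, ahead of Grin2a at 5.88 and Grin2b at 4.603. The order of these 3 genes was thus the same unscaled and per exon but changed with the whole gene length. Whether reads from introns were counted is not stated in the sources used here. Per kilobase on either length, the other 4 genes were below them.

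**Figure D1:**
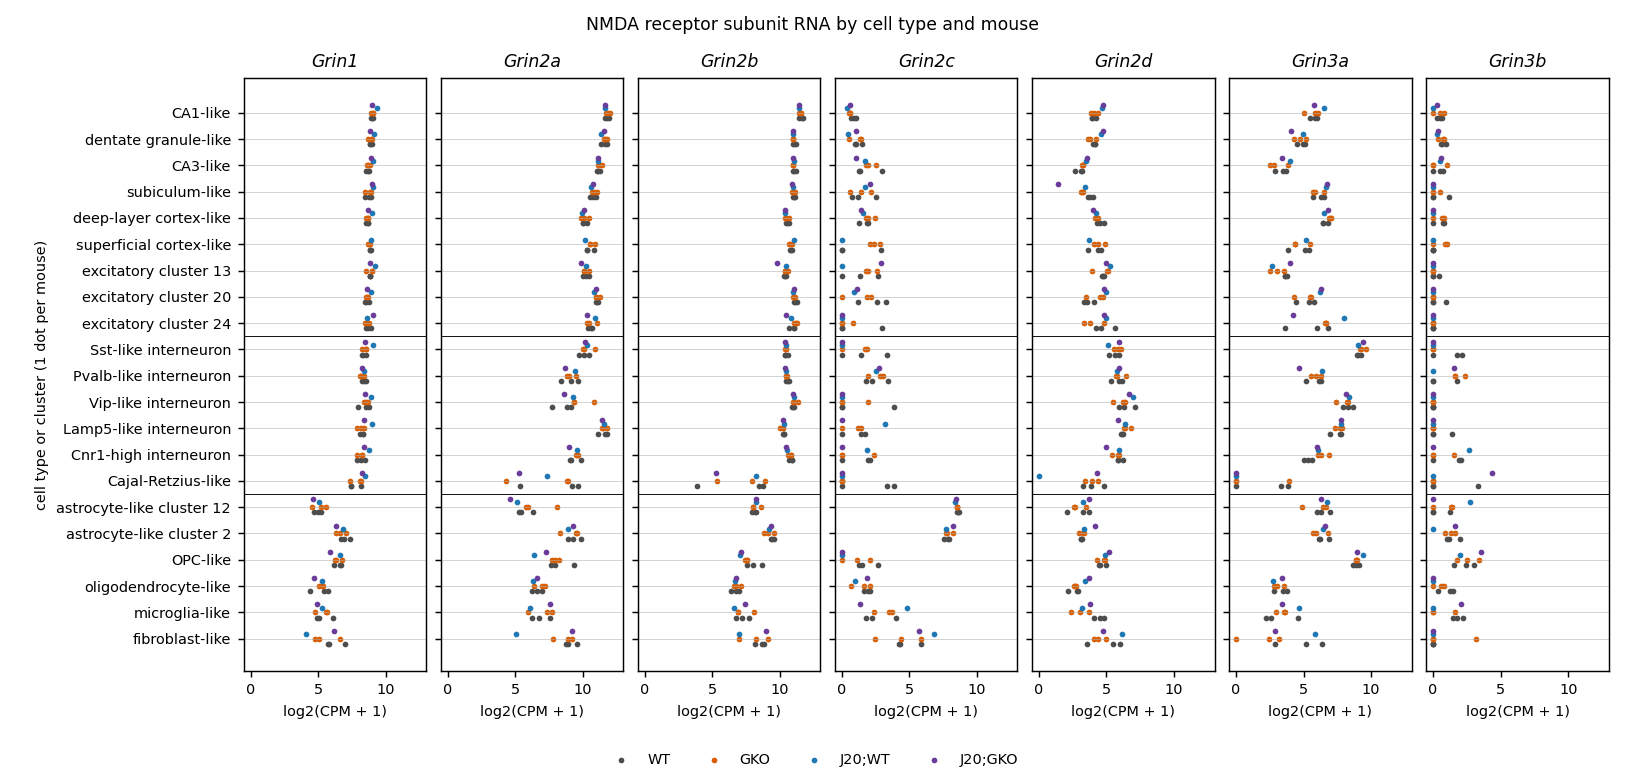
Level of the 7 NMDA receptor subunit genes, 1 panel per gene, as log2(CPM + 1) on the horizontal axis for each cell type or cluster, with 1 dot per mouse coloured by group. Grin1, Grin2a and Grin2b are high in all neuron types, whereas Grin2c is high in the 2 astrocyte-like clusters alone and Grin3a is highest in Sst-like interneurons and OPC-like nuclei.

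Grin1, the subunit that every NMDA receptor needs, varied the least among neurons. Its median over 8 mice was highest in CA1-like neurons, at 517 CPM (lowest 479, highest 643), followed by dentate granule-like neurons at 472 CPM (416 to 572) and CA3-like neurons at 434 CPM (375 to 522). Among interneurons it was at 373 CPM in Vip-like, 361 in Sst-like, 319 in Pvalb-like, 315 in Lamp5-like and 299 in Cnr1-high nuclei. The highest and lowest of the 14 neuron types differed 1.73-fold, and ranges of neighbours in the order overlapped for each pair of these types. Within mice, CA1-like neurons were above the next type, dentate granule-like neurons, in 8 of 8. No other pair of neighbours among these types kept its order in every mouse, so the rest of the order was not resolved. In astrocyte-like cluster 12, oligodendrocyte-like and microglia-like nuclei the median of Grin1 was 31.2, 38.1 and 35.2 CPM, respectively, and in OPC-like nuclei and astrocyte-like cluster 2 it was 87.6 and 109 CPM.

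Inhibitory neurons had less Grin1 than excitatory neurons, with a log2 fold change of -0.58 (SE 0.048, edgeR quasi-likelihood test with the mouse as a block, adjusted p = 1.98e-09). The medians were 328 CPM (286 to 445) and 469 CPM (424 to 563). In this comparison 6 of the 7 subunits passed the threshold, that is, the adjusted p was under 0.05 and the log2 fold change larger than 0.3 either way, while 44.0% of all 17468 genes tested did. The Grin1 differences of dentate granule-like and CA3-like from CA1-like neurons, -0.18 (adjusted p = 0.00179) and -0.24 (adjusted p = 0.000117) on the log2 scale, stayed under that size. No interneuron type differed from Sst-like interneurons in Grin1 past the threshold, with 95% intervals that all lay between -0.35 and 0.29.

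Grin2a, which encodes the subunit of most mature forebrain receptors, spread 6.58-fold over the neuron types. It was at 3491 CPM in CA1-like (3152 to 4217), 3116 in dentate granule-like (2571 to 3624) and 2259 in CA3-like neurons (2090 to 2753). Lamp5-like interneurons, at 2959 CPM (2252 to 3576), reached the level of these principal neurons, and their range overlapped that of the dentate granule-like neurons. The other interneurons were lower, at 1124 CPM in Sst-like (839 to 1887), 733 in Cnr1-high (502 to 926), 588 in Vip-like (216 to 1843) and 531 in Pvalb-like nuclei (326 to 799). Against Sst-like interneurons, Grin2a was higher in Lamp5-like ones by 1.38 on the log2 scale (SE 0.084, adjusted p = 9.35e-15 by edgeR) and lower in the Pvalb-like, Vip-like and Cnr1-high ones, by -1.13, -0.99 and -0.71. The Vip-like range was wide because GKO mouse 1 stood at 1843 CPM from 15 nuclei while the other 7 mice lay between 216 and 641 CPM.

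Grin2b, whose subunit dominates early in development and binds CaM kinase II, spread only 2.37-fold over neurons. CA1-like neurons had 2873 CPM (2693 to 3429), above every other neuron type in the order, and their range did not overlap that of the next. Next came excitatory clusters 20 (2144) and 24 (2112), and then Vip-like (2073), CA3-like (2056), dentate granule-like (2040), subiculum-like (2003), superficial cortex-like (1810) and Cnr1-high nuclei (1744). Pvalb-like (1398), deep-layer cortex-like (1393), Sst-like (1354) and excitatory cluster 13 nuclei (1349) were lower, and Lamp5-like interneurons (1211; 1010 to 1283) had the lowest median of the 14. Between interneurons its order was unlike that of Grin2a: Grin2b was higher in Vip-like than in Sst-like interneurons, by 0.66 on the log2 scale (SE 0.091, adjusted p = 4.9e-07 by edgeR). The Lamp5-like and Pvalb-like differences from Sst-like interneurons, -0.14 and 0.09, did not pass the threshold (95% intervals -0.30 to 0.03 and -0.05 to 0.23).

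Among principal neurons, Grin2b was lower in dentate granule-like than in CA1-like neurons by -0.55 (SE 0.045, adjusted p = 2.55e-08 by edgeR), and with Grin3a it made up the 2 of 5 tested subunits that passed there, where 42.7% of all genes did. In CA3-like against CA1-like neurons 5 of 6 tested subunits passed, against 33.6% of all genes, with Grin2a at -0.59, Grin2b at -0.46, Grin2d at -1.06 and Grin3a at -2.55 lower and Grin2c at 2.17 higher. The Grin2c value rests on medians of 2.33 and 0.550 CPM. It turned to -0.49 (adjusted p = 0.447) when clusters were cut more finely, which set CA2-like nuclei apart from CA3-like ones. CA3-like against dentate granule-like neurons called 4 of 6 subunits, against 48.4% of all genes. Of these Grin2a was lower by -0.35 and Grin3a by -1.42, whereas Grin2b differed by 0.09 (95% interval -0.00 to 0.19). Grin2c, higher by 1.42, lost its call with finer clusters (0.66, adjusted p = 0.185).

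**Figure D2:**
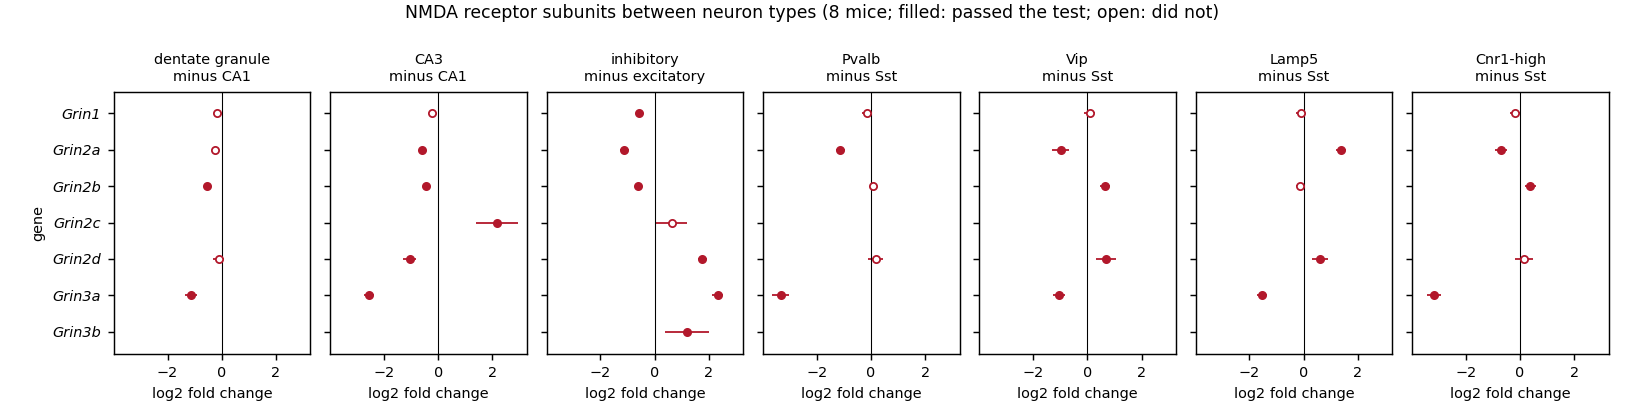
Log2 fold change of each tested subunit (rows) in 7 comparisons between neuron types (panels), with points for the estimates over 8 mice, bars for 95% intervals and filled points for those past the threshold. Grin3a moves in each panel, from -3.33 in Pvalb-like against Sst-like interneurons to 2.33 in inhibitory against excitatory neurons, while Grin1 passes in the latter alone.

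The balance of Grin2a to Grin2b was summed up as the log2 ratio of their UMIs in each mouse. Since the part of gene length in the counts was not tested, its sign is not read as a comparison of the 2 genes. Only its differences between types or mice are read. Lamp5-like interneurons had the highest median ratio, 1.30 (0.94 to 1.55), and dentate granule-like neurons followed at 0.62 (0.20 to 0.89). CA1-like neurons were at 0.25 (-0.12 to 0.65) and CA3-like ones at 0.12 (-0.15 to 0.42). Sst-like interneurons were at -0.25 (-0.65 to 0.46), and Cnr1-high (-1.19), Pvalb-like (-1.47) and Vip-like interneurons (-1.81) were lowest among neurons. The Lamp5-like range lay above those of the other 13 neuron types, Cajal-Retzius-like nuclei aside, and the ranges of the last 3 interneuron types overlapped each other.

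Within a mouse the order was steadier than these ranges show. The ratio was higher in dentate granule-like than in CA1-like neurons in 8 of 8 mice, by 0.31 ± 0.11 (SD, n = 8; exact two-sided sign-flip permutation p = 0.00781, adjusted over 6 comparisons 0.0117; 0.00781 is the smallest p possible). CA3-like neurons were below dentate granule-like ones in 8 of 8 mice, by -0.44 ± 0.09 (SD, n = 8; exact permutation, adjusted p = 0.0117). They were below CA1-like ones in 7 of 8, by -0.13 ± 0.10 (SD, n = 8; exact permutation, adjusted p = 0.0187), a call that was lost when each nucleus counted equally (-0.05, adjusted p = 0.289) and when clusters were cut more finely (-0.06, adjusted p = 0.188). Inhibitory neurons were below excitatory neurons in 8 of 8 mice, by -0.52 ± 0.18 (SD, n = 8; exact permutation, adjusted p = 0.0117). Pvalb-like interneurons were below Sst-like ones in 8 of 8, by -1.23 ± 0.24 (SD, n = 8; exact permutation, adjusted p = 0.0117).

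**Figure D3:**
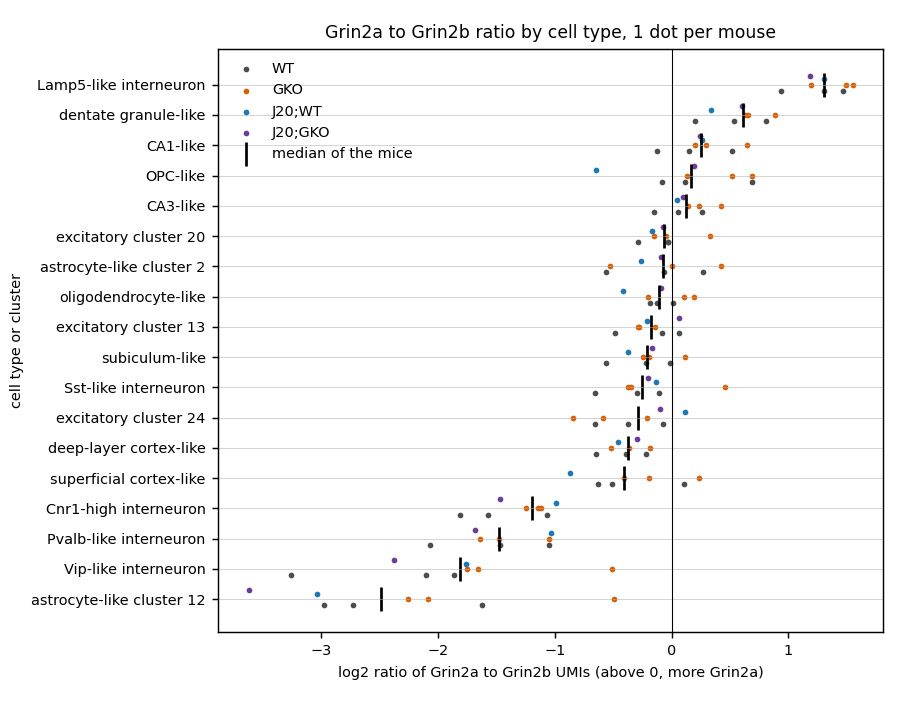
Log2 ratio of Grin2a to Grin2b UMIs (horizontal axis) in each cell type or cluster, with 1 dot per mouse and a bar at the median of the mice. Types are ordered by their median, from Lamp5-like interneurons at 1.30 down to astrocyte-like cluster 12 at -2.49.

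Grin2c, known from cerebellar granule cells and astrocytes, was almost confined to the astrocyte-like nuclei here. It was at 372 CPM (331 to 409) in astrocyte-like cluster 12 and at 225 CPM (193 to 295) in astrocyte-like cluster 2, with no overlap between the clusters or with any other type. The next were fibroblast-like nuclei at 35.9 CPM (4.42 to 111), and among neurons the highest was 5.30 CPM in Pvalb-like interneurons. Astrocyte-like against oligodendrocyte-like nuclei differed by 6.81 on the log2 scale (SE 0.13, adjusted p = 4.25e-19 by edgeR), and 5 of 6 tested subunits were higher, where 64.6% of all genes passed in either direction. With finer clusters 3 were called, Grin1 being at 0.16 and Grin2a at -0.056, and Grin2a also lost the call without doublet-scored nuclei (0.41, adjusted p = 0.138). After each nucleus was thinned to 1000 UMIs, 32.0% of cluster 12 nuclei held a Grin2c UMI (median of 8 mice; 17.9% to 34.4%), against 0.444% of microglia-like nuclei. Unthinned, the pooled shares were 75.4% and 1.14%, at median depths of 4274 and 1955 UMIs.

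Grin2d, the slowest-closing of the GluN2 subunits and known from interneurons, was higher in inhibitory than in excitatory neurons by 1.77 (SE 0.079, adjusted p = 2.9e-13 by edgeR). Its levels, 58.7 to 62.6 CPM and 12.7 to 21.4 CPM over the 8 mice, did not overlap. Vip-like (79.1 CPM) and Lamp5-like interneurons (76.6 CPM) had the highest medians. Both passed the threshold against Sst-like interneurons (0.70, adjusted p = 0.00585, and 0.60, adjusted p = 0.00143), and both lost it when clusters were cut more finely (0.50 and 0.40, adjusted p = 0.0761 and 0.0622). The Vip-like difference was also lost without the J20 mice (0.55, adjusted p = 0.0662). Ranges of all 5 interneuron types overlapped. CA3-like neurons had the lowest median of the neuron types, 8.34 CPM (5.54 to 11.05).

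Grin3a, whose subunit makes receptors less permeable to calcium, had the widest span over the 14 neuron types, 59.6-fold, among the 5 subunits whose lowest median there was above 0, and it passed the threshold in 11 of 11 comparisons between types. Sst-like interneurons had 587 CPM (503 to 778), against 302 in Vip-like (165 to 395), 214 in Lamp5-like (126 to 230), 64.5 in Pvalb-like (24.7 to 80.9) and 64.4 in Cnr1-high nuclei (31.8 to 116). The Sst-like range overlapped that of no other neuron type. Relative to Sst-like interneurons the log2 fold changes were -3.33 for Pvalb-like (SE 0.15, adjusted p = 7.72e-11 by edgeR), -3.17 for Cnr1-high, -1.53 for Lamp5-like and -1.05 for Vip-like ones.

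In these 4 interneuron comparisons 2, 3, 3 and 4 of 5 tested subunits passed, respectively, while the share of all genes was 23.5%, 17.0%, 23.1% and 17.7%. Inhibitory exceeded excitatory neurons in Grin3a by 2.33 (SE 0.092, adjusted p = 4.66e-10). The inhibitory class included 99 nuclei without an interneuron name, led by Neu4 and the OPC marker Pdgfra, of which 34.3% were doublet-scored. These nuclei were not left out on their own, so their part in the inhibitory values of any subunit was not tested. Among the named excitatory types, deep-layer cortex-like (111 CPM) and subiculum-like neurons (84.9 CPM) were highest and CA3-like neurons lowest (9.85 CPM; 4.67 to 15.02). Of thinned Sst-like nuclei 41.7% held a Grin3a UMI (median of 8 mice), against 4.44% of Pvalb-like and 0.677% of microglia-like nuclei, and the unthinned shares were 88.7%, 27.5% and 1.81%, respectively, at median depths of 11351, 13036 and 1955 UMIs.

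Oligodendrocyte precursor (OPC)-like nuclei were the other place with much Grin3a, at 485 CPM (409 to 665), above every type except Sst-like interneurons. Oligodendrocyte-like nuclei, the mature counterpart, had 8.48 CPM (5.71 to 12.6), a difference of 5.71 on the log2 scale (SE 0.13, adjusted p = 1.66e-24 by edgeR). OPC-like nuclei were higher than oligodendrocyte-like ones in 6 of 6 tested subunits, where 63.4% of all genes passed in either direction. Without doublet-scored nuclei 2 of the 6 turned lower, Grin2a at -0.43 and Grin2b at -0.36. Grin2d was higher by 1.91, and Grin3b, a gene better known from motor neurons, by 2.87 (SE 0.54, adjusted p = 2.69e-05) on 5, 5, 1, 4, 6, 2, 1 and 6 UMIs in the 8 mice. Against astrocyte-like nuclei, where 5 of 6 subunits and 53.8% of genes passed, OPC-like nuclei had more Grin3a (2.55) and Grin2d (1.59) and less Grin2c (-7.16).

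Grin3b was near the limit of detection everywhere. Its OPC-like median of 4.58 CPM (1.86 to 10.8) was the highest, and no other named type with 8 mice had a median above 1.99 CPM. Inhibitory exceeded excitatory neurons, at 0.931 and 0.359 CPM, by 1.19 (SE 0.39, adjusted p = 0.0138), on 21 and 60 UMIs in all, and the call was lost without doublet-scored nuclei (0.89, adjusted p = 0.115).

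The low levels of Grin1, Grin2a and Grin2b in glia-like nuclei stood beside RNA of other neuronal genes. A list of 8 genes of neurons (Snap25, Syt1, Slc17a7, Rbfox3, Meg3, Celf4, Nrgn and Camk2a) reached 2.51% to 15.1% of the excitatory level in astrocyte-like cluster 12, with a median of 5.01%. In the same cluster Grin2a was at 1.91%, below 8 of the 8 genes, Grin1 at 6.66% and Grin2b at 13.6%, below 1 of them. In OPC-like nuclei the list spanned 8.84% to 27.3%, with Grin2a at 8.94% and Grin2b at 8.85%, and in oligodendrocyte-like nuclei 5.38% to 25.9%, with Grin2a at 3.90% and Grin2b at 4.99%. Summed over the list, the level in single mice ranged from 2.63% to 8.10% in cluster 12, 8.01% to 23.2% in cluster 2, 11.3% to 21.0% in OPC-like, 5.10% to 8.40% in oligodendrocyte-like and 4.59% to 15.7% in microglia-like nuclei. None of the 8 genes had a median of 0 in these types.

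The values for Grin2a and Grin2b in OPC-like nuclei fell when the 6% of nuclei with the highest doublet scores in each library were left out. Their medians went from 225 to 47.8 CPM and from 188 to 62.7 CPM, and their differences from oligodendrocyte-like nuclei, 1.14 and 0.80, turned to -0.43 (adjusted p = 0.249) and -0.36 (adjusted p = 0.0210). Grin3a in OPC-like nuclei was then at 517 CPM, and its difference from oligodendrocyte-like nuclei at 5.82. In astrocyte-like nuclei, without these nuclei, Grin2a went from 393 to 101 CPM, while Grin2b went from 518 to 313 CPM and remained above oligodendrocyte-like nuclei by 1.81 (adjusted p = 3.66e-14), and Grin2c was at 323 CPM. Of thinned cluster 12 nuclei 24.98% held a Grin2b UMI, against 10.4% of microglia-like and 7.75% of oligodendrocyte-like nuclei, whereas Grin2a, at 5.10%, was below the 6.35% of microglia-like nuclei. Unthinned, the pooled shares with Grin2b were 62.9%, 19.5% and 18.2%, at median depths of 4274, 1955 and 2196 UMIs. The part of neuronal RNA in the astrocyte-like Grin2b value was not tested.

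A list of 35 genes around the receptor was read in the same comparisons: scaffolds that anchor it, kinases and phosphatases that act on it, trafficking partners, transporters of its co-agonists and downstream signalling proteins. Between inhibitory and excitatory neurons 20 of 35 passed, 7 higher and 13 lower, where 44.0% of all genes passed, with a median of -0.16 beside 0.01 over all genes. Among the lower ones were Ppp3ca, the catalytic subunit of calcineurin (-1.58), Camk2b, a CaM kinase II subunit (-1.52), and Dlg1, the scaffold SAP97 (-0.97). Higher ones included Rasgrf2, a calcium-responsive exchange factor for Ras (1.67), and Slc38a1, a glutamine transporter (1.04). Camk2a, a gene of this list, was also a marker used to name excitatory neurons, so its difference here does not stand apart from the naming.

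Between principal neurons, 17 of 33 partner genes passed in dentate granule-like against CA1-like neurons, 14 higher and 3 lower, where 42.7% of all genes passed, led by Rasgrf2 (3.35) and Tiam1 (3.08), an exchange factor for Rac. CA3-like against CA1-like neurons called 15 of 33, 9 higher and 6 lower, beside 33.6% of all genes, with Ephb2, an ephrin receptor that binds NMDA receptors, at 1.10. Lamp5-like against Sst-like interneurons called 11 of 31, beside 23.1% of all genes. Of the 6 downstream signalling genes 5 were higher there, with Nos1, neuronal nitric oxide synthase, at 2.26 and Tiam1 at 0.84. Nos1 was also on the marker list that named the Lamp5-like interneurons. Its rise, which enters both counts, was thus in part set by the naming. Of the 9 scaffold genes 1 was higher (Lin7a, 2.54) and 3 were lower. Pvalb-like, Vip-like and Cnr1-high against Sst-like interneurons each called 10, of 31, 31 and 32 tested, beside 23.5%, 17.7% and 17.0% of all genes. None of the 8 kinase and phosphatase genes passed in the Pvalb-like comparison.

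In glia-like nuclei, 30 of 35 partner genes passed between astrocyte-like and oligodendrocyte-like nuclei, 24 higher and 6 lower, with a median of 1.15, where 64.6% of all genes passed. Slc7a10, the transporter Asc-1 that carries D-serine and glycine, was higher in astrocyte-like nuclei by 6.52 (SE 0.16, adjusted p = 1.04e-17 by edgeR). OPC-like against oligodendrocyte-like nuclei called 27 of 32, 23 higher and 4 lower, beside 63.4% of all genes. There the scaffold genes Dlgap1 (3.33) and Lin7a (3.15) were higher, and Slc6a9, the glycine transporter GlyT1, was lower (-1.61).

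The genes whose level over the 21 types ran most like each subunit are given as a description, since the points share libraries and differ in depth. For Grin1 they were Svop (Pearson r = 0.99) and Sptbn4 (0.98), for Grin2a Rbfox3 (0.94) and Plppr2 (0.94), and for Grin2b Dgkg (0.94) and Klhl29 (0.93). Grin2c ran most like Prdm16 (0.98) and Slco1c1 (0.98), and Grin2d like Vstm2a (0.86) and Mast2 (0.84). Grin3a had no close match, with C130073E24Rik and Adra1a at 0.73 each. Grin3b, near the limit of detection, ran most like C1ql1 (0.82) and Usp24 (0.77). Among the subunits themselves, Grin1 ran with Grin2a (0.89) and Grin2b (0.90) and ran opposite to Grin2c (-0.64).

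Between GKO and WT mice no subunit changed past the threshold in any of 24 types and classes. By edgeR's quasi-likelihood test 0 of 117 subunit tests and 0 of 703 tests of the 35 partner genes passed, and DESeq2 called no subunit or partner gene either. A term for the date called 1 subunit, Grin2a in astrocyte-like cluster 12, where GKO mouse 1 was at 278 CPM and the other 7 mice at 23.5 to 80.0 CPM, and dropping the filter on low counts called Grin2a in Vip-like interneurons and 1 partner gene. The share of all genes called was 0 in each of the 24, so these counts equal the background, and with the replicate number as a block 22 genes in all were called, none a subunit. At an unadjusted p under 0.05 there were 5 subunit tests, 4.27% of them, beside 2.01% of the 234788 tests of all genes. Adjusted p-values of the subunits lay between 0.998 and 1. Of the subunits, Grin2a and Grin2b were tested in 24 types, Grin1 in 23, Grin3a in 21, Grin2d in 19, Grin2c in 6 and Grin3b in none.

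In excitatory neurons Grin1 stood at 435, 441 and 487 CPM in WT mice and 424, 469 and 469 CPM in GKO mice. Grin2a stood at 2612, 2622 and 2260 CPM in WT mice and 3084, 2675 and 2414 CPM in GKO mice, and Grin2b at 1987, 2271 and 2428 CPM and 2088, 2215 and 2107 CPM, respectively. The groups overlapped for all 3 genes. The log2 fold changes were 0.02 (95% interval -0.21 to 0.24), 0.15 (-0.20 to 0.49) and -0.04 (-0.31 to 0.23), so that changes inside these intervals are not excluded. In inhibitory neurons the values were 0.01 (-0.31 to 0.34), 0.10 (-0.53 to 0.73) and 0.02 (-0.36 to 0.39), and Grin2c in astrocyte-like nuclei differed by 0.02 (-0.31 to 0.34).

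The 5 tests with an unadjusted p under 0.05 are given by mouse. Grin3a in Cnr1-high interneurons was at 31.8, 48.3 and 39.1 CPM in WT mice and 116, 65.3 and 78.8 CPM in GKO mice, without overlap (log2 fold change 1.15, edgeR unadjusted p = 0.000794, adjusted p = 0.999), from 24 to 53 nuclei a mouse. Grin3a in deep-layer cortex-like neurons was at 85.2, 87.2 and 112 CPM in WT mice and 116, 129 and 128 CPM in GKO mice (0.41, adjusted p = 1.00). Grin2d in subiculum-like neurons was at 15.5, 13.01 and 11.4 CPM in WT mice and 8.11, 7.67 and 8.51 CPM in GKO mice (-0.69, adjusted p = 1.00), on 7 to 24 UMIs a mouse.

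Grin2b in OPC-like nuclei was at 412, 189 and 259 CPM in WT mice and 172, 188 and 187 CPM in GKO mice (-0.67), and the sign turned to 0.51 without doublet-scored nuclei. Grin2a in Vip-like interneurons was at 562, 450 and 216 CPM in WT mice and 1843, 641 and 640 CPM in GKO mice (1.33, unadjusted p = 0.0295), and without GKO mouse 1 the value was 0.57.

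**Figure D4:**
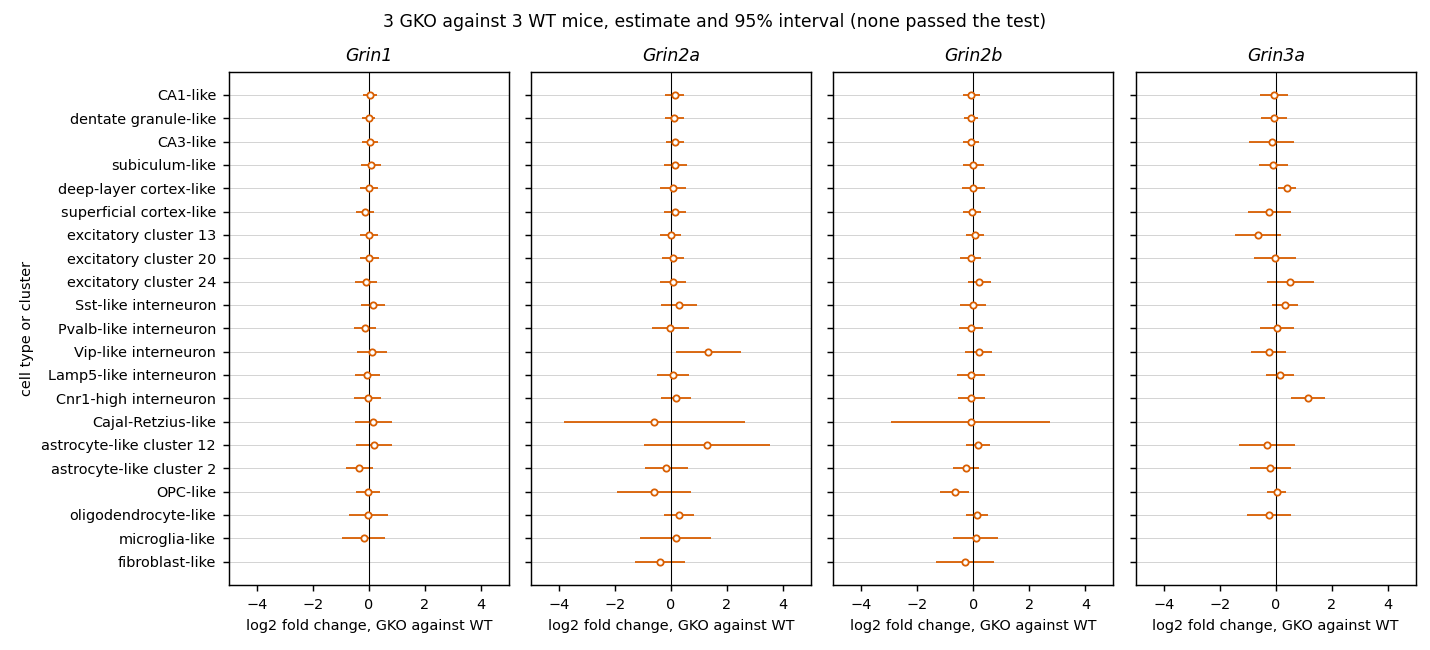
Log2 fold change of Grin1, Grin2a, Grin2b and Grin3a (panels) in GKO against WT mice, 3 mice each, in each cell type or cluster, with points for the estimates and bars for 95% intervals from edgeR. No point passed the threshold, and the intervals in Cajal-Retzius-like nuclei are wide for Grin2a and Grin2b.

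The Grin2a to Grin2b ratio in excitatory neurons was 0.17 ± 0.25 (SD, n = 3) in WT and 0.34 ± 0.19 (SD, n = 3) in GKO mice, a difference of 0.18 (exact permutation p = 0.5, where 0.1 is the smallest p possible). GKO mice were above the WT mice of the same number in 3 of 3 pairs, and with these pairs the exact permutation p was 0.25, which is the smallest that 3 pairs allow. Whether the numbers truly pair the mice was not settled. In inhibitory neurons it was -0.32 ± 0.42 and -0.22 ± 0.34 (SD, n = 3 each; exact permutation p = 0.9). WT mouse 1 (0.39) and GKO mouse 1 (0.56), the Xist-positive pair with its own date, had the highest excitatory ratios of the 8 mice. Within that date the GKO mouse was above the WT mouse, and within the other date the GKO mice (0.27 and 0.20) stood beside WT mice at 0.21 and -0.10. Date and the Xist level cannot be told apart in these 6 mice.

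The J20;WT and J20;GKO mice were 1 each, so their values carry counting error only and no test was made. Grin1 in excitatory neurons was at 563 CPM (95% Poisson interval 551 to 575) in the J20;WT and 471 CPM (460 to 482) in the J20;GKO mouse, a log2 ratio of -0.26. The 6 WT and GKO mice lay between 424 and 487 CPM, so the J20;WT mouse was above them and the J20;GKO mouse within their range. The same was seen by type: the J20;WT mouse was above all 6 other mice in 11 of 13 neuron types, and the J20;GKO mouse was within their range in 9. The share of all genes that lay above the 6 mice in the J20;WT mouse is not given here, so this is not read as particular to Grin1. The ratio was below 0 in 12 of 13 types, with a median of -0.35 and a range of -0.55 to 0.47. It was lower by more than 0.3 in 8 of the 13. In these types 19.9% to 29.9% of all genes with enough UMIs were lower by that size. The exception was excitatory cluster 24, where the J20;WT mouse gave only 38 Grin1 UMIs. The types share their mouse and are not replicates.

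**Figure D5:**
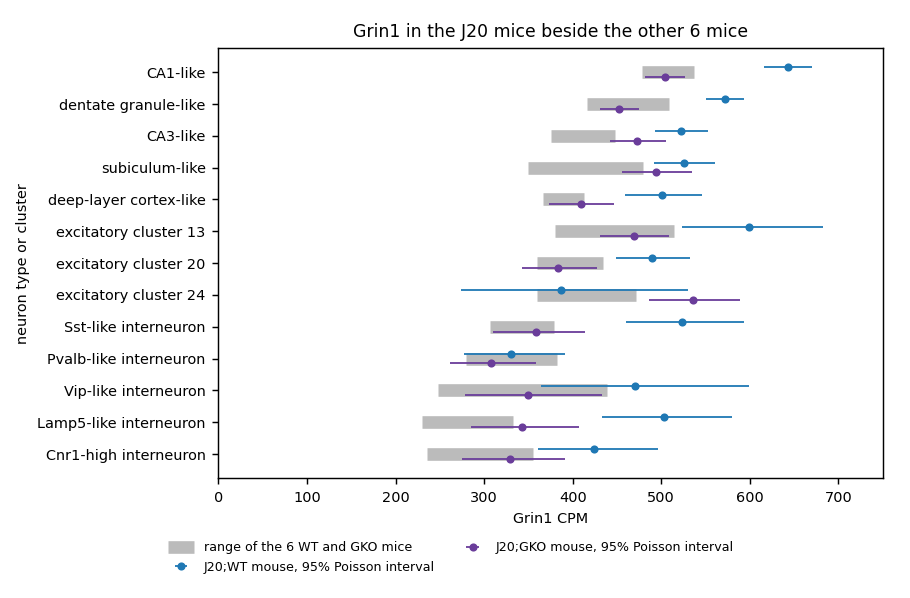
Grin1 level in CPM (horizontal axis) in 13 neuron types or clusters, with points and 95% Poisson intervals for the J20;WT and the J20;GKO mouse and grey bars from the lowest to the highest of the 6 WT and GKO mice. The J20;WT mouse lies to the right of the grey bar in 11 types, and the share of all genes that do so is not given here.

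Other subunits differed in fewer types of this pair. Grin3a was lower in the J20;GKO mouse in CA1-like neurons (54.2 against 88.8 CPM, log2 ratio -0.71) and in dentate granule-like neurons (15.8 against 30.8 CPM, -0.95), and the former J20;WT value lay above and the latter J20;GKO value below the 6 other mice. In Sst-like interneurons the order was the opposite (671 against 526 CPM, 0.35), with both mice inside the range of the 6. Grin2d in excitatory neurons was at 20.7 CPM in the J20;WT and 21.4 CPM in the J20;GKO mouse, both above the 12.7 to 17.2 CPM of the other mice. Both were also above the others in CA1-like and dentate granule-like neurons. The share of all genes that lay outside the range of the 6 mice is not given here. Grin2a and Grin2b in excitatory neurons differed by 0.04 and -0.07. Of the 5 subunits with at least 50 UMIs in the pair, 1 was past 0.3 in excitatory and 2 in inhibitory neurons, where 37.9% and 35.3% of all genes were. The 2 mice also differ in Xist and in date, and the J20 mice are younger than the others, so genotype cannot be told apart from these.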

How the data were processed

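Nuclei of mouse hippocampus were isolated and sequenced by the authors with droplet 3′ tags. Per the labels and file headers, Cell Ranger 3.0.2 made the counts, aligned to mm10; the authors deposited raw UMI counts per gene and barcode, with no normalization, and their own clustering used Seurat 3.0 in R 3.6.2. Whether introns were counted, and whether the date in the deposited data is one of sequencing or of computing, is not given in the sources used here.

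Nuclei with 200 to 7500 genes and at most 5% mitochondrial UMIs were kept. Counts were transformed and integrated (sctransform 0.4.2, Seurat 5.3.0, 3000 features less the 4 of the 7 genes among them, 30 components, 20 neighbours, resolution 0.8). Clusters were named from marker lists, not from the authors' annotation, and the naming rule was completed after the clusters were seen. The subunits and gene lists were chosen with earlier results of these data known. Scrublet in scanpy 1.11.5 marked at most 0.0600% of nuclei in 3 libraries, taken as not working, so no nuclei were removed and leaving out the top 6% of scores per library is an alternative.

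UMIs were summed per mouse and type (at least 10 nuclei) and tested with edgeR 4.0.16 in R 4.3.3 (TMM, filterByExpr, robust quasi-likelihood fit, Benjamini-Hochberg adjustment over all genes tested); calls needed an adjusted p under 0.05 with at least 0.3 of log2 fold change either way. Comparisons between types had the mouse as a block over 8 mice. The ratio of Grin2a to Grin2b had 0.5 added to each count. Exact permutation tests were run in scipy 1.17.1. CPM is the count per 1000000 UMIs of the mouse and type; with 21020159 to 43310978 UMIs per library, 95% Poisson intervals cover counting error only. Steps were tested on simulated data. J20 mice entered no test of genotype. Nuclei were thinned to 1000 UMIs for shares of nuclei.

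The replicate numbers of the labels were checked by correlating deviations from the group means. Same-numbered WT and GKO mice had 0.49, 0.15 and 0.20 in excitatory and 0.51, 0.12 and 0.28 in inhibitory neurons. Each was over 0.1, the bar set for pairing, but the second pair had 0.039 in astrocyte-like nuclei. Unlike numbers among mice 2 and 3 gave 0.19 and 0.20 in excitatory and 0.20 and 0.21 in inhibitory neurons. The bar of 0.1 therefore cannot show that the numbers pair mice 2 and 3. The main tests between GKO and WT mice were unpaired, and the replicate block was an alternative. Genes named are the 7 subunits, Gsap, Xist, partner genes past the threshold with the largest change in their group, and the 2 genes most like each subunit over the types. The latter came from genes whose highest mean over mice in a type was at least 229 CPM. Alternatives were library-size scaling, DESeq2 1.42.0, no filter on low counts, the replicate block, a date term, a stricter gene minimum of 1000, resolution 1.2, the doublet filter, equal weight per nucleus, and leaving out each mouse.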

Additional observations from a re-analysis of the deposited data

How the results depend on the processing

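Between GKO and WT mice, 0 subunit tests and 0 partner gene tests were called in each fit without 1 of the 6 mice, by DESeq2 and with library size alone. With the replicate block, which changed no call of a subunit or partner gene, 0 subunits and 0 partner genes were called and 22 genes in all, beside 0 without it, and the excitatory ratio of Grin2a to Grin2b differed by 0.18 (exact permutation p = 0.25, the smallest that 3 pairs allow). Other settings called a few: no filter on low counts gave 1 subunit (Grin2a in Vip-like interneurons, 1.32, adjusted p = 0.0188), 1 partner gene (Rasgrf2 in excitatory cluster 24) and 133 genes in all, a term for the date gave 1 subunit (Grin2a in astrocyte-like cluster 12) and 29 genes, and DESeq2 gave 5 genes. Without 1 mouse, 0 to 14 genes were called, the most (14) without WT mouse 1. Values near 0 changed sign: with library size alone Grin1 was at -0.0014 in excitatory and -0.029 in inhibitory neurons and Grin2b at -0.026 in inhibitory neurons, and without 1 mouse the ranges in inhibitory neurons were -0.062 to 0.079 for Grin1, -0.19 to 0.33 for Grin2a and -0.038 to 0.095 for Grin2b, and -0.10 to 0.0089 for Grin2b in excitatory neurons. The genotype difference in the ratio ran from -0.14 to 0.24 in inhibitory neurons. Grin2b in OPC-like nuclei turned to 0.51 without doublet-scored nuclei. Between types, leaving out 1 mouse moved no count of subunits called by more than 1. At resolution 1.2 astrocyte-like against oligodendrocyte-like nuclei called 3 subunits in place of 5, with Grin2a at -0.056 and Grin1 at 0.16, OPC-like against astrocyte-like nuclei had Grin2a at 1.22, and Grin2c in CA3-like against CA1-like neurons was -0.49. Without doublet-scored nuclei Grin2a and Grin2b in OPC-like against oligodendrocyte-like nuclei were -0.43 and -0.36, and Grin2a in astrocyte-like nuclei fell under the threshold against oligodendrocyte-like (0.41, adjusted p = 0.138) and OPC-like nuclei (-0.88, adjusted p = 0.0746). With library size alone Grin2b in Cnr1-high against Sst-like interneurons was 0.30, just under the threshold. For the ratio of Grin2a to Grin2b, CA3-like against CA1-like neurons lost the call with equal weight per nucleus (-0.050), at resolution 1.2 (-0.058) and in the WT and GKO mice alone (-0.12, adjusted p = 0.075). OPC-like against excitatory nuclei, -0.04 (adjusted p = 0.766), was -0.30 (adjusted p = 0.0469) with equal weight, -0.62 (adjusted p = 0.0187) without doublet-scored nuclei, 0.088 in WT and GKO mice alone, and between -0.10 and 0.068 without 1 mouse, the latter without the J20;WT mouse. The cause was not tested. Counting error weighs most on Grin3b and on Grin2c in neurons, which gave few UMIs of them.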

Other observations

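Nuclei in clusters that met no name also held subunit RNA. Cluster 18, 582 nuclei led by Zic1 and Ebf2, had 354 CPM of Grin1 (326 to 438 over 7 mice), 647 of Grin2a (457 to 852), 1719 of Grin2b (1176 to 1829) and 44.1 of Grin2d (24.6 to 54.5). Its Grin2d range lay above that of CA3-like neurons, which had the lowest median of the neuron types. It overlapped those of Sst-like (34.5 to 68.0 CPM), Pvalb-like (38.7 to 84.4), Vip-like (43.2 to 137) and Cnr1-high interneurons (30.4 to 75.4). Lamp5-like interneurons (57.1 to 111 CPM) lay above it. Cluster 8, 1406 nuclei with a median of 741 UMIs, had 2396 CPM of Grin2a (1592 to 2800) and 2054 of Grin2b (1693 to 2583) over 8 mice, close to the values of excitatory neurons.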
